A study of Mus musculus with 12 samples.

Results

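The genes of the NF-κB system, 10 in all, were followed through the transcriptomes of 12 mouse pre-B cell lines. They are the subunits Nfkb1, Nfkb2, Rel, Rela and Relb, the cytoplasmic inhibitors Nfkbia and Nfkbie, the nuclear members of the inhibitor family Nfkbiz and Bcl3, and Tnfaip3, which encodes the deubiquitinating enzyme A20. They were taken by name, with no threshold on a measured value but with earlier results of these data known, and all 10 were found by Ensembl identifier among the 51826 genes counted in every line.

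Bone marrow cells of 2 C57BL/6 mice were expanded with interleukin 7 (IL7), the growth factor of early B cells, for 7 days. Cells of each mouse were then given a retroviral vector, either empty (EV, 3 lines per mouse) or carrying BCR-ABL1, the fusion kinase of Philadelphia chromosome-positive leukemia (3 lines per mouse). The EV lines always had IL7 and were sorted by the GFP of their vector. The BCR-ABL1 lines had IL7 for the first 48 h after transduction and then grew out as transformed cells during 1 week without it. All 12 lines are therefore wild-type pre-B cells that carry a retroviral vector, and the kinase and the loss of IL7 cannot be told apart in any of them. Selection by outgrowth also went with condition, and so may have sorting, which is described for the EV lines only. The lines are named here by mouse and letter, for example EV line 2C for line C of mouse 2. The digit of a line's title was read as its mouse. The labels call the cells pro-/pre-B cells and do not say whether a line is a clone. Since the lines of a condition come from 2 mice, p-values measure the spread between lines.

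NF-κB proteins are dimers of the Rel family that bind κB sites in DNA. In resting cells the cytoplasmic inhibitors hold them back. Signals from antigen receptors, Toll-like receptors and members of the TNF receptor family free dimers of the Nfkb1, Rela and Rel products through the canonical route, whereas CD40, BAFF and lymphotoxin receptors process the Nfkb2 product and free its dimers with RelB through the non-canonical route. Many genes of the system are themselves NF-κB targets, and in B cell precursors NF-κB is best known for its part in survival and in the opening of the immunoglobulin κ locus.

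The promoters of these genes are shown first, since several of them are known targets of the factor that they encode or restrain. Promoter windows of 300 bases, 250 before and 50 after a transcript start, were taken from RefSeq on GRCm38.p6 for 7 of the 10 genes, all but Nfkb1, Relb and Nfkbiz. They were searched on both strands for the κB consensus of 10 bases, which reads 3 G, a purine, any 2 bases, 2 pyrimidines and 2 C. A match was found in 8 of the 10 windows of these genes, in 6 of 7 genes, and in 2779 of 32851 windows of all genes (8.46%). Matches can overlap, as can windows of 1 gene, and a match is a run of letters, not a measured binding site. The windows shown are those of Nfkb2 and Tnfaip3, which were called lower below as was Relb, of both cytoplasmic inhibitors, and of Rela, which held no match. Capitals mark the κB matches.
Nfkb2, first start, chr19:46304487-46304786, plus strand: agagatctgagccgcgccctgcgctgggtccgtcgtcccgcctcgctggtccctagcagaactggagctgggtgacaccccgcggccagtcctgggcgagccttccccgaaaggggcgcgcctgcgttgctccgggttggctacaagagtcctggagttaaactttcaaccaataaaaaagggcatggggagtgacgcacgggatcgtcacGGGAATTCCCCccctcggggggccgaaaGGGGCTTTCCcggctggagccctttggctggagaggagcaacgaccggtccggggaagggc
Nfkb2, second start, chr19:46305445-46305744, plus strand: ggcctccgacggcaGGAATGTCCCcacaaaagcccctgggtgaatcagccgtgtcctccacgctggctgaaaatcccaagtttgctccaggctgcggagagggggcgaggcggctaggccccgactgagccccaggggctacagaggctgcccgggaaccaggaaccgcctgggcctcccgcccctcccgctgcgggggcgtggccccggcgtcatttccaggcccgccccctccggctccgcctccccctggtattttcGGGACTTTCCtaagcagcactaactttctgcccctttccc
Tnfaip3, chr10:19015361-19015660, minus strand: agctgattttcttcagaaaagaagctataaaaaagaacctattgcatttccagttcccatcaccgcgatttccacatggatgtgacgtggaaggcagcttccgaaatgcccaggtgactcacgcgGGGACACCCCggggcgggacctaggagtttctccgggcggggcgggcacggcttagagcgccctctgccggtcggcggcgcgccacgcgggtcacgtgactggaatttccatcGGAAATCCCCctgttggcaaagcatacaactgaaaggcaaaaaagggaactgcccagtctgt
Nfkbia, chr12:55492598-55492897, minus strand: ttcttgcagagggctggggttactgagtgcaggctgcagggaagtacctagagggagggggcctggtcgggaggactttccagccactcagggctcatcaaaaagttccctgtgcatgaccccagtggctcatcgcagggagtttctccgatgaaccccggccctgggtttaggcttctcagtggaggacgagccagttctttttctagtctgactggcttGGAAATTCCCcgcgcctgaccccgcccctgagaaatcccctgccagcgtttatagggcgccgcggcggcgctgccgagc
Nfkbie, chr17:45555450-45555749, plus strand: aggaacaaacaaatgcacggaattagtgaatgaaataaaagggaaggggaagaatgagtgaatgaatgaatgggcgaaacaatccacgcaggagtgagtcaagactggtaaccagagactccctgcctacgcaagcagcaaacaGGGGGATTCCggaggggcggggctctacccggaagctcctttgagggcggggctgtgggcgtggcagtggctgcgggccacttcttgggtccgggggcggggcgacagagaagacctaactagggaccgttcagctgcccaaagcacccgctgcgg
Rela, chr19:5637291-5637590, plus strand: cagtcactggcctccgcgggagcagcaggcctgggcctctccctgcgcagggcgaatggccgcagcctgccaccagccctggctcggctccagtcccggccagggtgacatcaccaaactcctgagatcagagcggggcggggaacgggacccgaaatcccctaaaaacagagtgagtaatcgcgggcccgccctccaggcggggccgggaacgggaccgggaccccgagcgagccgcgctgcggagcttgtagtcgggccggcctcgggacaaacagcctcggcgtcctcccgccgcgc

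In the first Nfkb2 window 2 overlapping matches began 39 and 38 bases before the start site, and another began 11 bases before it. The Tnfaip3 window held matches that began 125 and 12 bases before the start, whereas a window at another Tnfaip3 start held none. Nfkbia had a match 29 bases and Nfkbie one 106 bases before the start. Rel, not shown, had overlapping matches 92 and 91 bases before the start, and Bcl3, not shown, had one 2 bases after it.

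Reads on genes summed to between 34791011 and 66011225 per line, and a floor of detection was set at 3 counts, between 0.0433 and 0.0920 CPM depending on the line. CPM are counts scaled to equal library size, here by the TMM method. The test was edgeR's glmTreat with a quasi-likelihood fit, whose null hypothesis is a change of at most 1.5-fold between BCR-ABL1 and EV lines, and a gene was called when its Benjamini-Hochberg adjusted p over all 15038 tested genes was under 0.05. Of these genes 5.99% were called higher and 6.49% lower in BCR-ABL1 lines. Between lines of one mouse and condition, EV line 2C stood apart: the chi-square statistic per gene was 320 and 477 against the other EV lines of mouse 2, and between 10.1 and 85.1 for all other pairs. The B lineage label held: all 13 of its markers were tested, and their summed level was 2980 to 5159 CPM in EV lines, against 3087 to 4116 CPM with BCR-ABL1, with Il7r called lower and Dntt called higher, the latter not with mouse as replicate block (adjusted p = 0.0533). Summed markers of myeloid cells reached at most 1.87 CPM, those of mast cells and basophils 0.797 CPM and those of stromal cells 1.72 CPM, in any line. T and NK markers summed to 11.2 to 42.0 CPM in EV lines, against 0.664 to 4.77 CPM with BCR-ABL1, which in EV lines was mostly Trac (9.99 to 41.1 CPM), whereas Cd3e reached at most 0.123 CPM. Erythroid markers summed to 1.26 to 6.81 CPM in EV lines, against 5.98 to 12.8 CPM with BCR-ABL1, mostly Hbb-bt, and Hba-a1 was at 0 in every line. The part of these markers in the results was not tested. In bulk RNA, fewer cells of a type and less RNA per cell cannot be told apart.

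Of the 10 genes, all of which were tested, Nfkb2, Relb and Tnfaip3 fell, Nfkbiz rose and 6 were not called. The 3 that fell include both subunits of the non-canonical dimer, and the gene that rose encodes IκBζ, a nuclear protein of the inhibitor family. Against no change at all, without the 1.5-fold limit, 7 members were lower and 1 was higher, where 25.9% and 22.5% of all tested genes were. For 7 members every BCR-ABL1 line lay below every EV line and for 1 every BCR-ABL1 line lay above, which held for 13.5% and 12.1% of all tested genes. The median log2 fold change was -0.72 for the 10 members and -0.02 for all tested genes. The fold change was negative in both mice for 8 of 10, called or not, and the share over all tested genes was not counted.

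**Figure D1:**
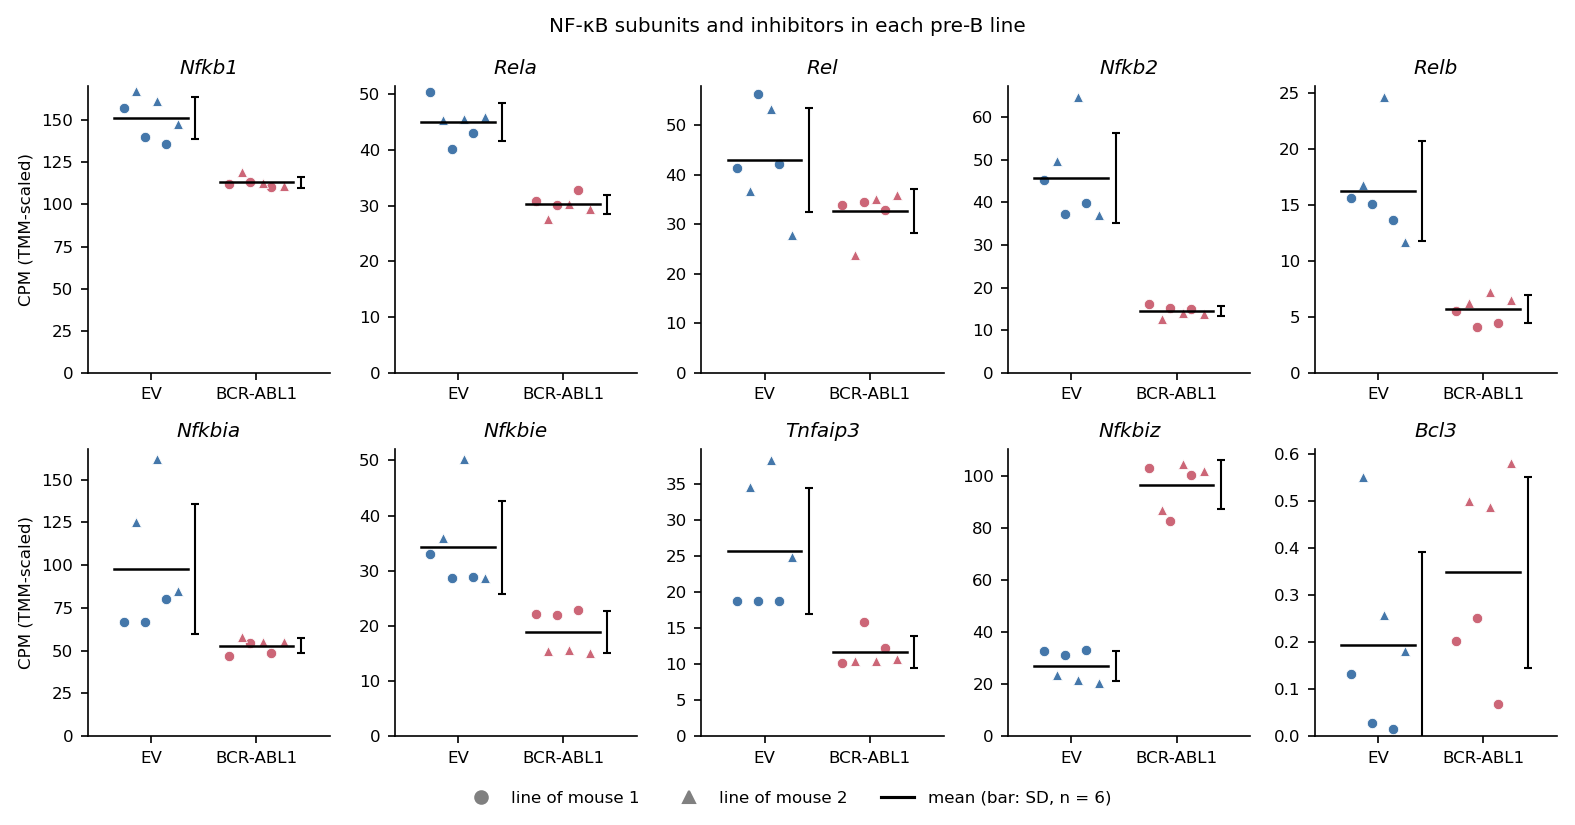
Level of each NF-κB gene (CPM, TMM-scaled, linear axes from 0) in the 6 EV and 6 BCR-ABL1 lines, with circles for lines of mouse 1 and triangles for lines of mouse 2. Black lines are means and bars are SD (n = 6), with bars that would pass below 0 ending there. Only Rel and Bcl3 have conditions that overlap, and Nfkbiz is the one gene with every BCR-ABL1 line above every EV line.

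Levels of different genes can be compared only per length, here as CPM per kilobase of all annotated exons. That length can exceed that of the transcript in use, by an extent that differs between genes, and the orders below depend on it. In EV lines the order was Nfkbia (60.6 ± 23.7, SD, n = 6), Rela (14.7 ± 1.10), Nfkb1 (12.6 ± 1.03), Nfkbie (11.2 ± 2.75), Nfkb2 (9.94 ± 2.31), Rel (5.76 ± 1.41), Nfkbiz (5.40 ± 1.15), Relb (4.18 ± 1.15), Tnfaip3 (3.56 ± 1.21) and Bcl3 (0.0786 ± 0.0799). The ranges of the lines did not overlap between Nfkbia and Rela, between Nfkb2 and Rel, and between Tnfaip3 and Bcl3, and those of all other neighbours overlapped. In BCR-ABL1 lines the order was Nfkbia (32.9 ± 2.70, SD, n = 6), Nfkbiz (19.2 ± 1.86), Rela (9.85 ± 0.548), Nfkb1 (9.39 ± 0.270), Nfkbie (6.19 ± 1.25), Rel (4.39 ± 0.599), Nfkb2 (3.15 ± 0.261), Tnfaip3 (1.62 ± 0.305), Relb (1.47 ± 0.315) and Bcl3 (0.141 ± 0.0819). Here Rela and Nfkb1, Rel and Nfkb2, and Tnfaip3 and Relb overlapped, and the other neighbours did not. Nfkbiz ranked 7 in EV and 2 in BCR-ABL1 lines, and Nfkb2 ranked 5 and 7.

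Nfkb1, Rela and Rel make up the canonical dimers. Nfkb1 (ENSMUSG00000028163, chr3:135584655-135691547 in GENCODE M21 on GRCm38, as all gene positions here), which encodes the precursor of the DNA-binding subunit without a transactivation domain, had a lowest, median and highest level of 136, 152 and 168 CPM in EV lines and of 110, 113 and 119 CPM in BCR-ABL1 lines. No BCR-ABL1 line reached the lowest EV line, and the log2 fold change was -0.42 (standard error 0.05, edgeR adjusted p = 1 against 1.5-fold and 0.000174 against no change). Gm43430 overlaps Nfkb1 on the same strand, so that reads of the 2 genes may not be told apart.

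Rela (ENSMUSG00000024927, chr19:5637483-5648130), the main transactivating subunit, which alone among the genes shown held no κB match, had a lowest, median and highest level of 40.1, 45.4 and 50.4 CPM in EV lines and of 27.7, 30.3 and 32.8 CPM in BCR-ABL1 lines. The conditions did not overlap, and the lines of each lay close together. On the log2 scale the difference was -0.57 (standard error 0.06, edgeR adjusted p = 0.833 against 1.5-fold and 4.43e-05 against no change).

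Rel (ENSMUSG00000020275, chr11:23736847-23770970), which encodes c-Rel, the transactivating subunit that prevails in mature lymphocytes, had a lowest, median and highest level of 27.9, 41.8 and 56.3 CPM in EV lines and of 23.8, 34.3 and 35.8 CPM in BCR-ABL1 lines. The conditions overlapped: EV line 2C was the lowest EV line, and 5 of 6 BCR-ABL1 lines lay above it. BCR-ABL1 line 2A was the lowest of all. For Rel the log2 fold change was -0.39 (standard error 0.18, edgeR adjusted p = 1 against 1.5-fold and 0.0601 against no change), and -0.49 without EV line 2C (adjusted p = 1).

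Nfkb2 and Relb encode the dimer of the non-canonical route. Nfkb2 (ENSMUSG00000025225, chr19:46304320-46312385), with κB matches in the windows of all 3 of its starts, had a lowest, median and highest level of 37.0, 42.5 and 64.7 CPM in EV lines and of 12.6, 14.5 and 16.1 CPM in BCR-ABL1 lines. The lowest EV line lay above the highest BCR-ABL1 line by more than the whole range of BCR-ABL1 lines, and EV line 2B was the highest. Nfkb2 fell 3.15-fold (log2 fold change -1.66, standard error 0.14, edgeR adjusted p = 5.61e-05), with log2 fold changes of -1.39 in mouse 1 and -1.88 in mouse 2. It remained called under all 22 alternatives. Psd and AC114539.1 overlap it on the opposite strand, and the sources used here do not say whether counting used strand.

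Relb (ENSMUSG00000002983, chr7:19606217-19629438) had a lowest, median and highest level of 11.7, 15.4 and 24.6 CPM in EV lines and of 4.12, 5.91 and 7.25 CPM in BCR-ABL1 lines. EV line 2B was again the highest and EV line 2C the lowest of the EV lines, and the conditions did not overlap. Relb fell 2.85-fold (log2 fold change -1.51, standard error 0.20, edgeR adjusted p = 0.00139). The log2 fold change was -1.64 in mouse 1 (adjusted p = 8.41e-06) and -1.39 in mouse 2, where 6 lines alone gave an adjusted p of 0.0735.

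Within each line, the transcripts of the non-canonical subunits were set against those of the canonical ones, per kilobase. The log2 ratio of Nfkb2 to Nfkb1 was between -0.60 and 0.08 in EV lines (mean -0.36 ± 0.24, SD, n = 6) and between -1.84 and -1.40 in BCR-ABL1 lines (mean -1.57 ± 0.15, SD, n = 6). All EV lines lay above all BCR-ABL1 lines. In EV line 2B alone Nfkb2 exceeded Nfkb1 per kilobase, with lengths of 4584 and 12061 bases. Its CPM before division by length were 64.7 for Nfkb2 and 161 for Nfkb1. The difference between the conditions does not depend on the lengths. The ratio was 2.32-fold lower in BCR-ABL1 lines (difference of log2 ratios -1.21, standard error 0.11, p = 0.00216 in a two-sided exact permutation test, which is the lowest value these labelings can give).

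The log2 ratio of Relb to Rela was between -2.31 and -1.23 in EV lines (mean -1.85 ± 0.37, SD, n = 6) and between -3.21 and -2.40 in BCR-ABL1 lines (mean -2.77 ± 0.37, SD, n = 6). The conditions again did not overlap, although EV line 2C and BCR-ABL1 line 2B lay close to each other. The difference of log2 ratios was -0.92 (standard error 0.21, two-sided exact permutation test, p = 0.00216). The log2 ratio of Rel to Rela, both of the canonical route, was between -2.0 and -0.79 in EV lines and between -1.5 and -1.0 in BCR-ABL1 lines. These ranges overlapped, and the difference of 0.21 (standard error 0.19) was within the spread of the lines (two-sided exact permutation test, p = 0.303). With lines exchanged only within a mouse, as replicate block, p was 0.005 for Nfkb2 to Nfkb1 and for Relb to Rela, the smallest possible, and 0.29 for Rel to Rela.

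**Figure D2:**
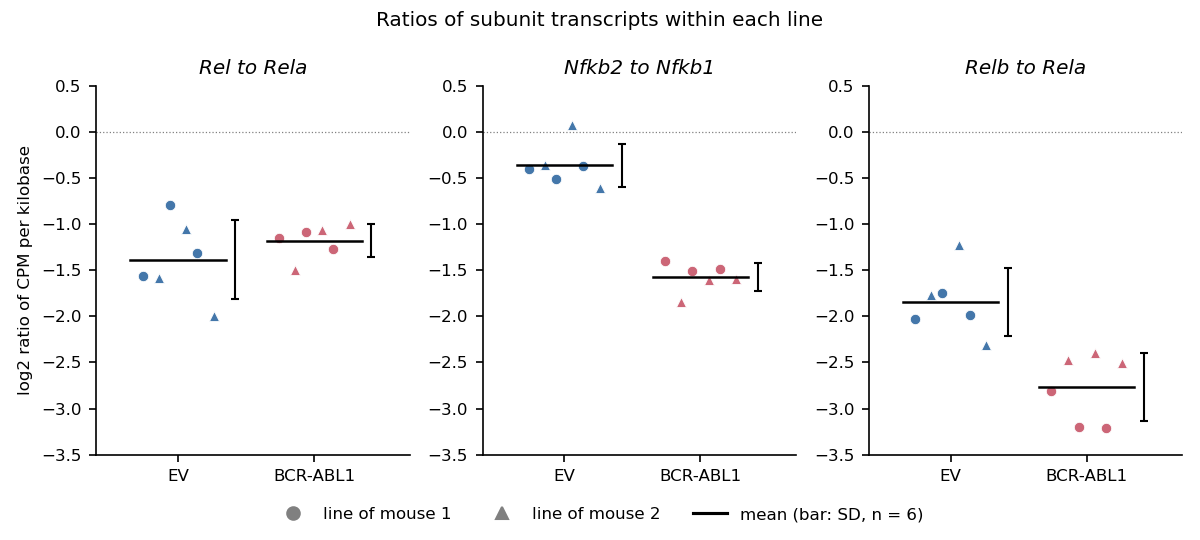
Log2 ratio of CPM per kilobase of pairs of subunit genes in each line, with circles for mouse 1, triangles for mouse 2, black lines for means and bars for SD (n = 6). Dotted lines mark equal levels. The ratios of Nfkb2 to Nfkb1 and of Relb to Rela separate the conditions, whereas those of Rel to Rela overlap.

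The cytoplasmic inhibitors were lower in BCR-ABL1 lines but were not called. Nfkbia (ENSMUSG00000021025, chr12:55489410-55492647), which encodes IκBα, the rapid feedback inhibitor of canonical dimers, had a lowest, median and highest level of 66.5, 82.7 and 162 CPM in EV lines and of 46.7, 54.7 and 58.0 CPM in BCR-ABL1 lines. The conditions did not overlap, and EV lines 2A (125 CPM) and 2B lay far above the others. For Nfkbia the log2 fold change was -0.88 (standard error 0.22, edgeR adjusted p = 0.153 against 1.5-fold and 0.00451 against no change), -0.51 in mouse 1 and -1.13 in mouse 2.

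Nfkbie (ENSMUSG00000023947, chr17:45555703-45563169), which encodes IκBε, a slower feedback inhibitor, had a lowest, median and highest level of 28.6, 31.0 and 50.2 CPM in EV lines and of 15.1, 18.8 and 22.9 CPM in BCR-ABL1 lines. The BCR-ABL1 lines formed 2 tight groups by mouse, 21.9 to 22.9 CPM in mouse 1 and 15.1 to 15.6 CPM in mouse 2. For Nfkbie the log2 fold change was -0.86 (standard error 0.18, edgeR adjusted p = 0.115 against 1.5-fold and 0.00162 against no change). It was -0.43 in mouse 1 and -1.30 in mouse 2 (adjusted p = 0.0412 in mouse 2 alone).

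Tnfaip3 (ENSMUSG00000019850, chr10:19000910-19015657) encodes A20, which edits ubiquitin chains upstream of the IκB kinase and is itself induced by NF-κB. It had a lowest, median and highest level of 18.8, 21.9 and 38.4 CPM in EV lines and of 10.2, 10.6 and 15.9 CPM in BCR-ABL1 lines. The EV lines of mouse 1 lay between 18.76 and 18.83 CPM and those of mouse 2 between 24.9 and 38.4 CPM, all above every BCR-ABL1 line. Tnfaip3 fell 2.20-fold (log2 fold change -1.14, standard error 0.22, edgeR adjusted p = 0.0248). The call was lost with DESeq2 (adjusted p = 0.126), in mouse 1 alone (log2 fold change -0.55, adjusted p = 0.757) and without EV line 2A, EV line 2B or BCR-ABL1 line 2B (adjusted p = 0.0506, 0.0519 and 0.0508). With mouse as replicate block it was kept (adjusted p = 0.029), and with mouse and letter as block it was lost (adjusted p = 0.0779).

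Of the nuclear members of the inhibitor family, Nfkbiz rose and Bcl3 was not called. Nfkbiz (ENSMUSG00000035356, chr16:55811375-55838899) encodes IκBζ, which binds Nfkb1 homodimers in the nucleus and is needed for a set of secondary response genes such as cytokines. It had a lowest, median and highest level of 20.5, 27.3 and 32.9 CPM in EV lines and of 82.5, 101 and 104 CPM in BCR-ABL1 lines. The lowest BCR-ABL1 line, 1B, lay far above the highest EV line. Nfkbiz rose 3.56-fold (log2 fold change 1.83, standard error 0.14, edgeR adjusted p = 1.81e-05), and it remained called under all 22 alternatives.

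Bcl3 (ENSMUSG00000053175, chr7:19808462-19822770), which encodes a nuclear partner of Nfkb1 and Nfkb2 homodimers, was barely detected. Its raw counts were between 1 and 18 in EV lines and between 3 and 32 in BCR-ABL1 lines. It had a lowest, median and highest level of 0.0154, 0.156 and 0.552 CPM in EV lines and of 0.0682, 0.369 and 0.581 CPM in BCR-ABL1 lines. EV lines 1B and 1C lay below the floor of 3 counts, and the conditions overlapped. For Bcl3 the log2 fold change was 0.95 (standard error 0.67, edgeR adjusted p = 0.735 against 1.5-fold and 0.266 against no change). With lines exchanged only within a mouse, as replicate block, the two-sided exact permutation p was 0.035, unadjusted. Gm16175 and Gm16174 overlap it on the opposite strand.

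**Figure D3:**
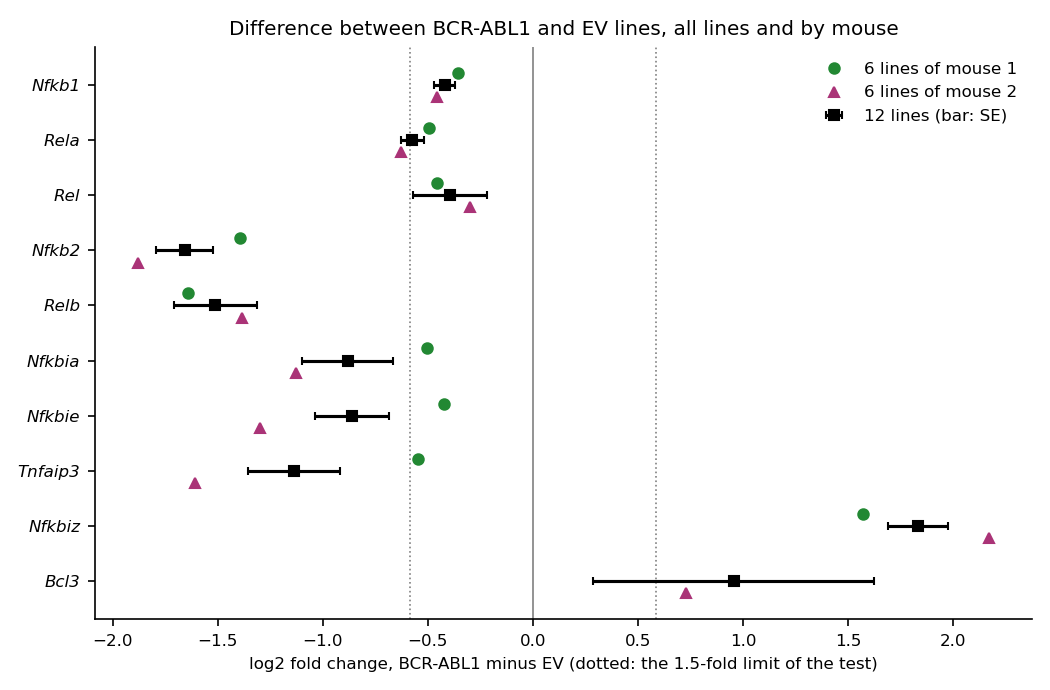
Log2 fold change of each NF-κB gene (BCR-ABL1 minus EV) over all 12 lines (squares, bars are standard errors) and over the 6 lines of mouse 1 (circles) and of mouse 2 (triangles), which carry no bar. Dotted lines mark 1.5-fold. Tnfaip3 and Nfkbie lie further from 0 in mouse 2 than in mouse 1, and Nfkbiz is the rightmost gene in both mice. Bcl3 has no circle, since its counts did not pass the gene filter in mouse 1.

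The difference between the conditions was not the same in both mice for 3 of the 10 genes, as tested by the interaction of mouse and condition in edgeR, where 16.9% of all tested genes were called. For Tnfaip3 the log2 fold change in mouse 2 minus that in mouse 1 was -1.07 (adjusted p = 0.0121), and its EV mean was 18.8 CPM in mouse 1 and 32.6 CPM in mouse 2, against 12.8 and 10.6 CPM in BCR-ABL1 lines. For Nfkbie the difference was -0.88 (adjusted p = 0.022). For Nfkbiz it was 0.60 (adjusted p = 0.0158): EV lines of mouse 2 (20.5 to 23.5 CPM) were lower than those of mouse 1 (31.1 to 32.9 CPM), whereas BCR-ABL1 lines had means of 97.7 CPM in mouse 2 and 95.1 CPM in mouse 1. Without EV line 2C the test also called Nfkbia (-0.84, adjusted p = 0.0012) and Nfkb2 (-0.67, adjusted p = 0.00494). Without EV line 1B, EV line 1C or BCR-ABL1 line 2C the call of Nfkbie was lost (adjusted p = 0.0589, 0.0576 and 0.0541).

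The genes whose profile over the 12 lines was most like that of Nfkbiz, the called member with the largest log2 fold change, were Bmp2k, Ptges3l and Zfp983. The root mean square difference of centred log2 CPM from Nfkbiz was 0.21, 0.22 and 0.22, respectively. Bmp2k, which encodes a kinase first described as induced by bone morphogenetic protein, was at 16.6 to 24.6 CPM in EV lines, against 61.7 to 67.2 CPM with BCR-ABL1. Zfp983, a zinc finger gene, was at 7.91 to 10.1 CPM in EV lines, against 27.0 to 36.1 CPM with BCR-ABL1. Ptges3l was far lower, at 0.162 to 0.307 CPM in EV lines, against 0.585 to 1.13 CPM with BCR-ABL1.

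Around these genes, 4 lists of the same pathway were counted, 96 genes in all. The ligands and receptors held the largest changes. Of 22 genes, 13 were tested. Of these 4 rose and 2 fell, where 5.99% and 6.49% of all tested genes did. The median log2 fold change of the 13 was 0.73. It leaves out 9 genes too low for the filter, which a gene can pass by the lines of 1 condition. Tnf (ENSMUSG00000024401, chr17:35199381-35202007), the inflammatory ligand of the canonical route, was at 0.180, 0.328 and 1.67 CPM in the lowest, median and highest EV line and at 33.9, 36.6 and 40.2 CPM in BCR-ABL1 lines. Every BCR-ABL1 line was far above every EV line, and the log2 fold change of Tnf was 6.08 (standard error 0.44, edgeR adjusted p = 1.45e-05), and 6.84 without EV line 2B, the highest EV line (adjusted p = 6.37e-08).

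Lta (chr17:35203165-35205351), which encodes lymphotoxin α and lies next to Tnf, was between 0.245 and 0.693 CPM in 5 EV lines, at 14.3 CPM in EV line 2C and between 99.2 and 109 CPM in BCR-ABL1 lines. EV line 2C stood alone among the EV lines and still lay far below the BCR-ABL1 lines. Lta rose by 5.22 on the log2 scale (standard error 0.84, edgeR adjusted p = 0.00462) by 5.86 with mouse as replicate block (adjusted p = 0.0018) and by 7.79 without EV line 2C (adjusted p = 9.42e-09). Within mouse 2 alone Lta was not called (adjusted p = 0.13).

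Tnfsf11 (chr14:78277445-78308043), which encodes RANKL, a ligand of the non-canonical route, was at 0 or under the floor in EV lines of mouse 1, and ranged from 0.162 to 1.63 CPM in EV lines of mouse 2, whereas BCR-ABL1 lines of mouse 1 had 8.57 to 13.8 CPM and those of mouse 2 had 29.2 to 32.7 CPM. Tnfsf11 rose by 5.60 on the log2 scale (standard error 1.05, edgeR adjusted p = 0.00599), a fitted value that depends on the prior count where lines are at 0. The log2 fold change was 6.83 without EV line 2B (adjusted p = 0.00201), 6.41 with mouse as replicate block, and 10.6 in mouse 1 alone against 5.12 in mouse 2 alone. Its receptor gene Tnfrsf11a was at most at 0.123 CPM in any line and was not tested. Nor was the TNF receptor gene Tnfrsf1a, with at most 0.981 CPM in EV lines and 0 CPM in BCR-ABL1 lines. The lymphotoxin receptor gene Ltbr, at most at 0.276 and 0.017 CPM, was not tested either. These receptor genes lie outside the rule for naming genes.

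Cd40 (chr2:165055627-165072948), a receptor of the non-canonical route, was at 0.875 to 0.953 CPM in EV lines of mouse 1, at 4.42 to 5.03 CPM in EV lines of mouse 2, and between 0.182 and 0.610 CPM in the BCR-ABL1 lines. It fell by 2.99 on the log2 scale (standard error 0.56, edgeR adjusted p = 0.00448), with log2 fold changes of -1.31 in mouse 1 alone and -3.75 in mouse 2 alone, and the EV lines of the 2 mice did not overlap. Tnfrsf1b, the second TNF receptor, rose (log2 fold change 1.11, adjusted p = 0.047) and Tnfrsf13b, the TACI receptor, fell (log2 fold change -0.80, adjusted p = 0.0482). These 2 genes lie outside the rule for naming genes and were chosen after their values were seen, and the calls were lost under 13 and 16 of 22 alternatives, respectively, among them mouse as replicate block for Tnfrsf13b (adjusted p = 0.0502). With that block Tlr2, a Toll-like receptor gene of at most 1.17 CPM in EV and 3.27 CPM in BCR-ABL1 lines, was called higher (adjusted p = 0.00242). Tnfrsf13c, which encodes the BAFF receptor, was at 12.7 ± 5.90 CPM in EV and 20.8 ± 1.98 CPM in BCR-ABL1 lines (SD, n = 6, edgeR adjusted p = 0.496 against 1.5-fold and 0.036 against no change). Ltb, lymphotoxin β, was at 2.52 ± 1.41 and 4.17 ± 0.632 CPM (SD, n = 6, edgeR adjusted p = 0.525). In mouse 1 alone both were called higher (log2 fold change 1.13, edgeR adjusted p = 3.51e-05, and 1.56, adjusted p = 0.000257). In mouse 2 alone the log2 fold changes were 0.35 and 0.18, and neither was called.

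**Figure D4:**
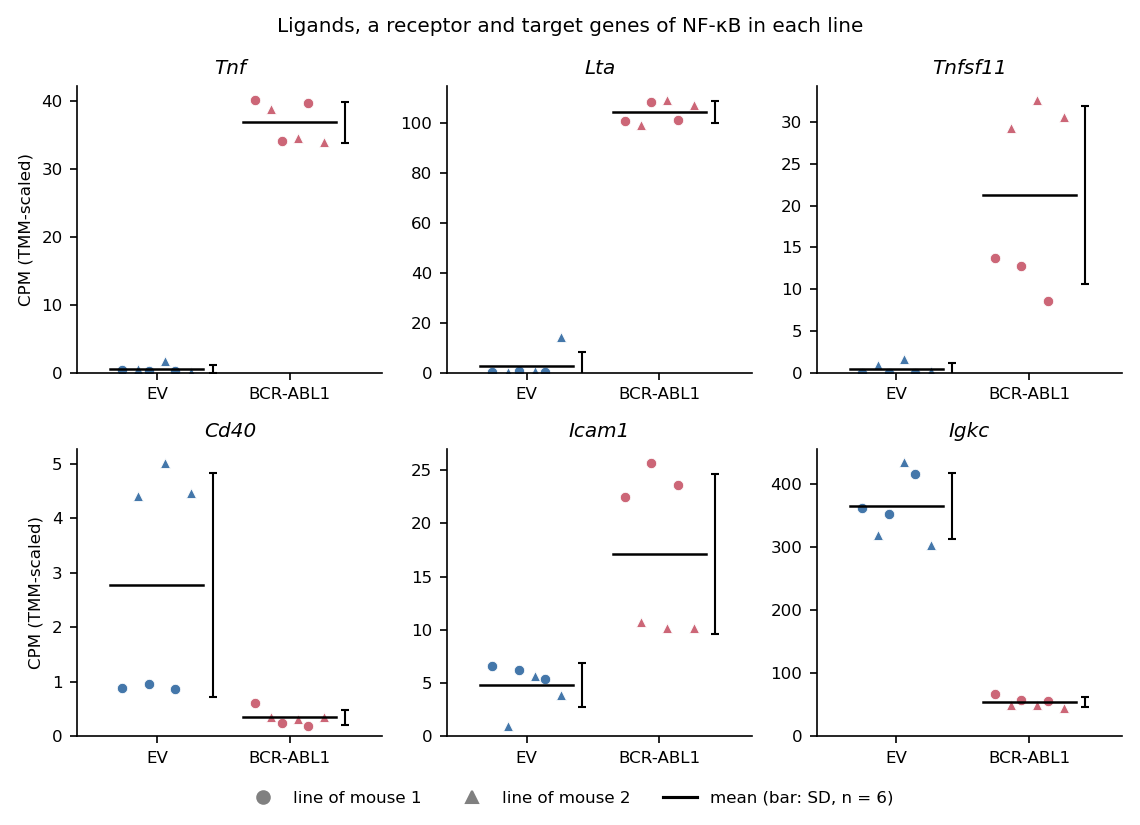
Level (CPM, TMM-scaled, linear axes from 0) of the called ligands and receptor and of the called target genes that the naming rule took, in each EV and BCR-ABL1 line, with circles for mouse 1, triangles for mouse 2, black lines for means and bars for SD (n = 6; bars end at 0). Tnf, Lta, Tnfsf11 and Icam1 are higher in every BCR-ABL1 line, with EV line 2C of Lta at 14.3 CPM, and Cd40 and Igkc are lower.

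The kinases and adaptors that pass the signal on, 30 genes that were all tested, held 0 called in either direction by edgeR's glmTreat and 0 by DESeq2, with Traf3 the 1 gene at an unadjusted p under 0.05. Over all tested genes glmTreat called 5.99% higher and 6.49% lower. Against no change 3 of the 30 genes were higher and 9 lower, where 22.5% and 25.9% of all tested genes were. The median log2 fold change was -0.09. Ikbkb, the catalytic subunit of the IκB kinase in the canonical route, was at 73.4 ± 5.45 CPM in EV and 75.6 ± 4.46 CPM in BCR-ABL1 lines (SD, n = 6). Chuk, the kinase subunit shared with the non-canonical route, was at 41.1 to 50.0 CPM in EV lines of mouse 2, whereas all other lines had 88.3 to 106 CPM. The EV lines of mouse 2 thus stood apart from the other 9 lines, and the interaction of mouse and condition was 1.02 on the log2 scale (edgeR adjusted p = 0.000129). Ikbkg, the regulatory subunit, was at 69.8 ± 6.33 and 59.1 ± 2.15 CPM (SD, n = 6). Against no change the edgeR adjusted p was 0.00891 for Ikbkg and 0.593 for Ikbkb.

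Map3k14 and Traf3 control the non-canonical route, the first as the kinase NIK that starts it and the second as the adaptor that has NIK degraded. Map3k14 was at 24.8 ± 1.91 CPM in EV and 18.7 ± 2.47 CPM in BCR-ABL1 lines (SD, n = 6). Its log2 fold change was -0.41 (standard error 0.09, edgeR adjusted p = 1 against 1.5-fold and 0.00415 against no change). Traf3 was at 22.1 to 36.3 CPM in EV lines, against 38.9 to 62.4 CPM with BCR-ABL1. The conditions did not overlap for either gene. The log2 fold change of Traf3 was 0.86 (standard error 0.15, edgeR adjusted p = 0.0664 against 1.5-fold and 0.000455 against no change), and it was not called. With size factors as DESeq2 computes them in place of TMM it was called (adjusted p = 0.047), as it was without EV line 2B, BCR-ABL1 line 1B or BCR-ABL1 line 1C (adjusted p = 0.0239, 0.0262 and 0.0368).

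Among the other inhibitors and negative regulators, 16 of 17 genes were tested, and 0 were called by edgeR's glmTreat and 0 by DESeq2. The 1 gene at an unadjusted p under 0.05 was Nlrc3, which was called higher with mouse as replicate block (adjusted p = 0.0359) but not with mouse and letter as block. Against no change 2 of the 16 genes were higher and 4 lower, where 22.5% and 25.9% of all tested genes were. The median log2 fold change was -0.11. Nfkbib, which encodes IκBβ, was at 12.7 ± 1.22 CPM in EV and 11.5 ± 0.997 CPM in BCR-ABL1 lines (SD, n = 6). Nfkbid, another nuclear inhibitor gene, was at 16.7 to 17.9 CPM in EV lines of mouse 1, at 33.4 to 42.0 CPM in EV lines of mouse 2, and between 14.4 and 18.5 CPM in the BCR-ABL1 lines. Only the EV lines of mouse 2 stood apart from all other lines (interaction -0.86 on the log2 scale, edgeR adjusted p = 0.00153). Within mouse 1 the BCR-ABL1 lines, at 14.4 to 16.2 CPM, also lay below the EV lines. The log2 fold change of Nfkbid was -0.17 in mouse 1 and -1.03 in mouse 2 (edgeR adjusted p = 0.0274 in mouse 2 alone). Over all lines the adjusted p was 0.466 against 1.5-fold and 0.0263 against no change. The deubiquitinase gene Cyld was at 117 ± 9.43 and 97.3 ± 1.85 CPM and Tnip1, which encodes a partner of A20, at 16.1 ± 2.87 and 13.8 ± 1.56 CPM (SD, n = 6). Against no change the edgeR adjusted p was 0.00245 for Cyld, 0.168 for Tnip1 and 0.215 for Nfkbib.

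Of 29 genes known as NF-κB targets, 16 were tested. Of these 1 rose and 1 fell, where 5.99% and 6.49% of all tested genes did. The median log2 fold change was 0.02. This list does not hold the members or Tnf, which were counted above. Igkc, the constant region of the immunoglobulin κ light chain, was at 303, 357 and 435 CPM in the lowest, median and highest EV line and at 45.3, 53.1 and 66.1 CPM in BCR-ABL1 lines. It fell 6.74-fold (log2 fold change -2.75, standard error 0.12, edgeR adjusted p = 2.7e-07), and the conditions did not overlap. Gm30211 overlaps it on the same strand. Icam1, which encodes an adhesion molecule, was at 0.981, 5.54 and 6.61 CPM in EV lines and at 10.1, 16.6 and 25.7 CPM in BCR-ABL1 lines. Icam1 rose by 1.83 on the log2 scale (standard error 0.50, edgeR adjusted p = 0.0242), and the call was lost in mouse 2 alone (adjusted p = 0.268) and without BCR-ABL1 line 1A or 1B. Cd83, an activation marker, was not tested: its level was at most 4.15 CPM in EV lines and 0.0385 CPM in BCR-ABL1 lines.

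**Figure D5:**
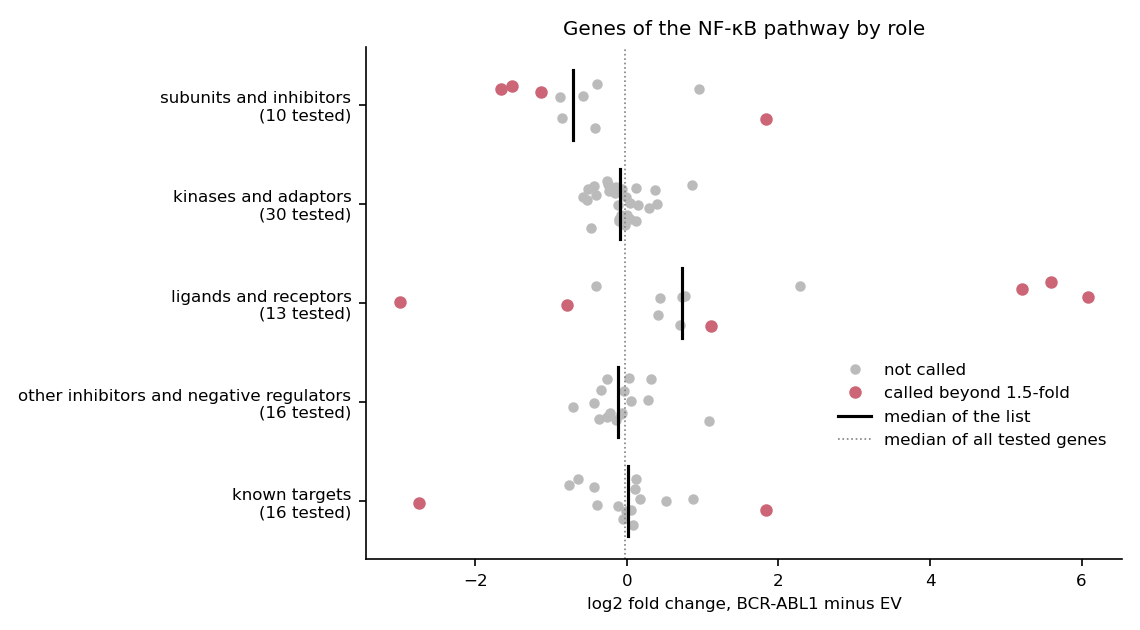
Log2 fold change (BCR-ABL1 minus EV) of every tested gene of the NF-κB subunits and inhibitors and of the 4 other lists, with genes called beyond 1.5-fold in red, the median of each list as a black line and the median of all tested genes as a dotted line. The median of tested genes is -0.72 for subunits and inhibitors and 0.73 for ligands and receptors, of which 9 were too low to be tested. No kinase, adaptor or other inhibitor is called.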

How the data were processed

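RNA of the 12 lines was sequenced as stranded total RNA libraries. The authors deposited counts, whole numbers per gene for 51826 mouse genes, neither normalized nor pooled. The submitters' processing notes name, with no role or order, FastQC 0.11.5, Trimmomatic 0.36, TopHat2 2.1.1, Bowtie2 2.3.2, featureCounts 1.5.3, R 3.6.1, edgeR 3.18.1 and GRCm38. The strand setting, the annotation used for counting and whether single reads or read pairs were counted are not given in the sources used here.

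Counts were analysed in R 4.3.3 with edgeR 4.0.16 (filterByExpr, TMM, quasi-likelihood fit, glmTreat beyond 1.5-fold, Benjamini-Hochberg over all tested genes). Symbols came from GENCODE M21 (51633 identifiers matched). Standard errors come from the spread of log2 CPM (prior count 2). The floor of 3 counts covers counting error only. Ratios were tested by two-sided exact permutation over 924 labelings, or 400 within mice. Plots used matplotlib in Python.

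The members, the lists of pathway genes and markers, and the tests were chosen with earlier results of these data known. All 10 members were named. From each list up to 4 called genes with the smallest adjusted p were named, and always Chuk, Ikbkb, Ikbkg, Map3k14, Traf3, Tnf, Ltb, Cd40, Tnfrsf13c, Nfkbib, Nfkbid, Cyld, Tnip1, Igkc, Cd83 and Icam1; another gene of this rule is not reported here. The genes most like a member were the 3 with the smallest root mean square difference.

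The titles give each line a digit and a letter, and the digit was read as the mouse. The paper describes triplicates of cells from 2 mice, prepared in independent experiments. Whether a letter marks the same experiment in both conditions is not said. After subtraction of condition means, the correlation of an EV with a BCR-ABL1 line was 0.0853 to 0.24 within a mouse and -0.203 to -0.0636 across mice. The subtraction itself ties the negative values to the positive ones, so they are not separate evidence. Mouse was taken as the pairing, but it entered only the alternatives and the interaction test. The main tests of genes and of ratios held condition alone. No 2 lines of one mouse and condition agreed within sampling noise, and other pairs were not compared with it. Alternatives were DESeq2's size factors, DESeq2 1.42.0, the test against no change, a likelihood ratio fit, all genes with a count unfiltered, a filter of CPM 1 in 6 lines, mouse or mouse and letter as replicate block, each mouse alone, leaving out each line and, for ratios, a prior count of 0.5. For the pathway lists these were added after seeing the data.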

Additional observations from a re-analysis of the deposited data

Results flagged for a closer look

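Single lines lay apart from the other 5 of their condition in 9 of 74 groups examined by Dixon's ratio, which chance alone flags in about 1 of 20 groups. Among the members these were Nfkb1 in BCR-ABL1 line 2A (119.4 CPM), Rel in BCR-ABL1 line 2A (23.84 CPM), Nfkbie in EV line 2B (50.24 CPM), Tnfaip3 in BCR-ABL1 line 1B (15.9 CPM) and the log2 ratio of Nfkb2 to Nfkb1 in EV line 2B (0.07859). Among the other genes they were Tnf in EV line 2B (1.669 CPM), Lta in EV line 2C (14.34 CPM), Map3k14 in EV line 1A (28.42 CPM) and Cd83 in EV line 2C (4.147 CPM).

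The difference between BCR-ABL1 and EV lines was not the same in both mice, by edgeR's test of the interaction of mouse and condition, for some of the named genes, where 16.9% of all tested genes were called. As log2 fold change in mouse 2 minus that in mouse 1 it was -0.8784 for Nfkbie (adjusted p = 0.022), 0.5965 for Nfkbiz (adjusted p = 0.0158) and -1.068 for Tnfaip3 (adjusted p = 0.0121). It was -2.43 for Cd40 (adjusted p = 0.00472), -5.478 for Tnfsf11 (adjusted p = 0.0161), -1.383 for Ltb (adjusted p = 0.0278) and -0.7461 for Tnfrsf1b (adjusted p = 0.00765). It was 1.024 for Chuk (adjusted p = 0.000129), -0.8597 for Nfkbid (adjusted p = 0.00153) and 1.157 for Ptges3l (adjusted p = 0.0305). Ptges3l was chosen for a profile like that of Nfkbiz, so its value is not independent of the one for Nfkbiz. The EV lines held only 6 to 20 counts of Ptges3l.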

How the results depend on the processing

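Over 22 alternatives, 206 of 218 member values kept their direction and their side of the threshold, 7 lost the call, 5 gained it and none changed sign. Bcl3 had values under 20, since it did not pass the gene filter in mouse 1 alone or the filter of CPM 1. Of the 7, Tnfaip3 accounts for 6 and Relb in mouse 2 alone for 1. The 1 member called higher was so under all 22. Against no change, 7 members were called lower instead of 3, and over all genes 3389 were higher and 3897 lower instead of 901 and 976. With mouse as replicate block 1 member was higher and 3 lower, and 1126 and 1080 of all genes, while Tnfrsf13b and the marker Dntt lost their calls. Mouse 1 alone gave 2512 higher and 1877 lower genes and mouse 2 alone 408 lower. With 1 line left out, 807 to 1353 genes were higher, the most without EV line 2C, and 2 to 5 members had an effect that differed between the mice. The log2 fold change of Ikbkb, 0.04, was -0.007717 in mouse 1 alone and between -0.002857 and 0.09856 with 1 line left out. The causes of these changes were not tested. The mouse block gave the ratio of Nfkb2 to Nfkb1 an exact permutation p of 0.005. Counting error is widest for Bcl3 among the members, with 1 to 32 counts a line.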
